A study of Drosophila melanogaster with 9 samples.

Results

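Glutathione S-transferase (Gst) and UDP-glycosyltransferase (Ugt) genes were followed in fly ovaries of 2 Pcif1 mutant lines. The members are the genes of the authors' deposited table whose names start with Gst and a capital letter or with Ugt and a digit, 52 of the 17199 genes listed, and all of them are protein-coding. They comprise 35 Gst genes, of the D, E, O, S, T and Z classes, and 17 Ugt genes. An adjusted p was given for 49 members, and GstD11, GstE4 and Ugt37c1 had none.

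Both families carry out the conjugation step of detoxification. Glutathione S-transferases are mostly soluble dimers that join the tripeptide glutathione to reactive compounds, and the delta (GstD) and epsilon (GstE) classes are the expanded insect groups. Insect UDP-glycosyltransferases sit in the membrane of the endoplasmic reticulum and pass a sugar, usually glucose, from a UDP-sugar to small lipophilic molecules. In flies the genes of both families are known for expression in midgut, Malpighian tubules and fat body, and many stand in tandem arrays of duplicated copies.

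Total RNA depleted of ribosomal RNA was sequenced in 9 libraries, 3 from each of 3 lines of Drosophila melanogaster. Pcif1 BG02557, the control, carries a P-element, P{GT1}, within intron 1 of Pcif1, whose mammalian relative binds RNA polymerase II through its phosphorylated tail. The edited alleles M6stop and F9ΔNLS were made by CRISPR-Cas9 in the w1118 background, in the stretch of Pcif1 that encodes the nuclear localization signal, and were backcrossed to the BG02557 line. M6stop is a frameshift with a premature stop codon, and F9ΔNLS lacks the signal in frame and leaves a protein of 829 amino acids. Each mutant line was compared with BG02557. The age of the flies is not given in the sources used here, 3 pairs of ovaries were taken per line, and a line's libraries are biological replicates by the design text.

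For Pcif1 itself the log2 fold changes were -2.51 (M6stop) and 0.02 (F9ΔNLS), per the authors' deposited table. Values of single libraries could not be tied to lines, so each level below is the authors' mean over all libraries, each change is their log2 fold change over BG02557, and neither carries an SD. Rises and falls below are those with an adjusted p under 0.05 in the authors' DESeq2 fit, over all genes they tested. Fold changes of uncertain genes look pulled toward 0, so a small listed value beside a passing adjusted p does not give the size of a change. Without a call, a small listed value does not show that a gene was level. Of 10662 tested genes, 5.52% were called in M6stop and 23.4% in F9ΔNLS.

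Germline and follicle cell genes marked these samples as ovary, and RNA of other organs was present as well. By the authors' deposited table, mean normalized counts of 6 germline markers (vas, nos, osk, grk, otu, aub) summed to 63804, and those of 6 follicle cell markers summed to 66418. The 7 gut markers summed to 67683, per the authors' deposited table, led by the digestive protease genes Jon65Aiv (23558) and betaTry (19920) and the amylase gene Amy-p (13704). The 8 muscle markers, a list made for the muscle sheath of the ovary, summed to 15142, per the authors' deposited table. The 7 fat body markers summed to 19817, led by FASN1 (14028), with Lsp2 at 246 and Fbp1 at 141, per the authors' deposited table. Sums were 2900 for 5 Malpighian tubule, 2893 for 5 spermatheca and reproductive tract and 2012 for 6 hemocyte markers, per the authors' deposited table. The hemocyte gene He and the reproductive tract gene Spn28F were at or near 0. In bulk RNA, more cells of a type and more RNA per cell cannot be told apart.

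One delta gene held the largest part of the Gst RNA in these samples, and the organ this RNA came from was not tested. GstD1, whose enzyme breaks down DDT and whose promoter is a common reporter of oxidative stress, had a mean of 10934 normalized counts, per the authors' deposited table, 43.0% of the sum over the 35 Gst genes. Per kilobase of exon this is 12971, a level above that of 98.7% of tested protein-coding genes. On the same scale of level per kilobase, the epsilon genes GstE6 (2559) and GstE12 (1232) came next, followed by the theta genes GstT4 (974) and GstT1 (952) and the omega genes GstO1 (841) and GstO2 (830). The median Gst gene stood at 283 and the median Ugt gene at 61.5.

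Among the 17 Ugt members, Ugt86Da had the highest level. Its mean of 1268 normalized counts, per the authors' deposited table, is 636 per kilobase, above 73.9% of tested protein-coding genes. Levels per kilobase were 266 for Ugt86Dd, a gene tied to survival on nicotine in larvae, 225 for Ugt35b, 221 for Ugt36Bc, 176 for Ugt35a and 108 for Ugt58Fa. Low levels were common: 8 members had a mean under 10 normalized counts, and the lowest, Ugt37c1, had one of 0.26, per the authors' deposited table. No spread over libraries is attached to these levels, so the order of genes with close values is not established.

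**Figure D1:**
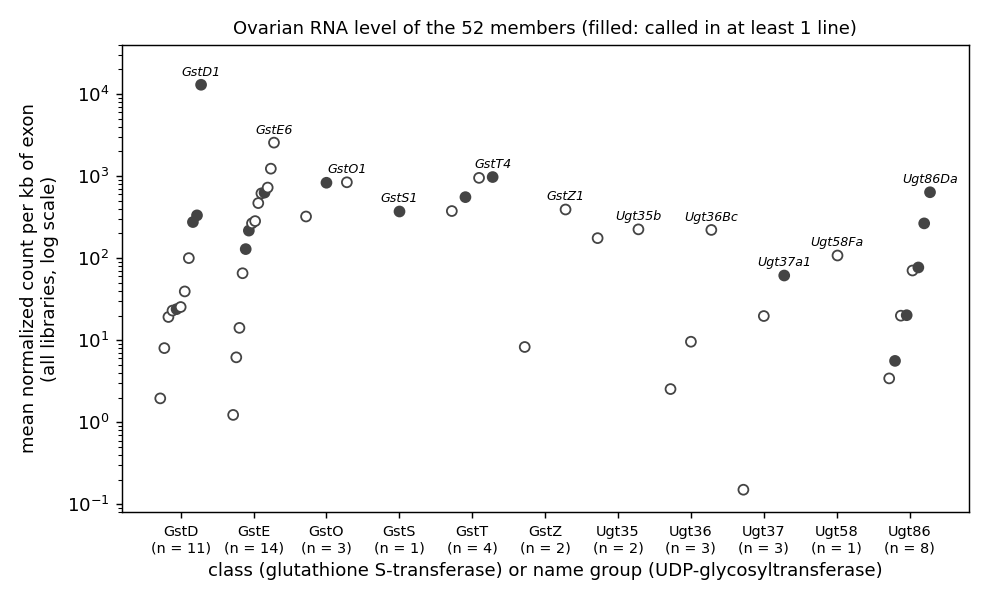
Level of each of the 52 members, as the authors' mean normalized count over all libraries per kilobase of exon (log axis), by Gst class and Ugt name group. Each point is a gene, filled where it was called in at least 1 mutant line. GstD1 (12971) stands above all others, and Ugt86Da (636) is the highest of the Ugt members shown.

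In M6stop ovaries 12 of 49 tested members changed, 5 upward and 7 downward. This is 24.5% of the members, against 5.52% of all tested genes; by direction, 10.2% of members rose against 3.48% of all tested genes and 14.3% fell against 2.04%. The calls went both ways, and the median log2 fold change of the members was -0.01, against -0.001 for all tested genes. As values of uncertain genes look pulled toward 0, that median does not show the members to be level. In F9ΔNLS 12 of 49 members passed as well, 5 upward and 7 downward. There the share of 24.5% is near the 23.4% of all tested genes, with 10.2% higher against 11.6% and 14.3% lower against 11.9%, and is not a result about the members. The members' median was -0.06 in F9ΔNLS, against 0.004 for all tested genes.

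**Figure D2:**
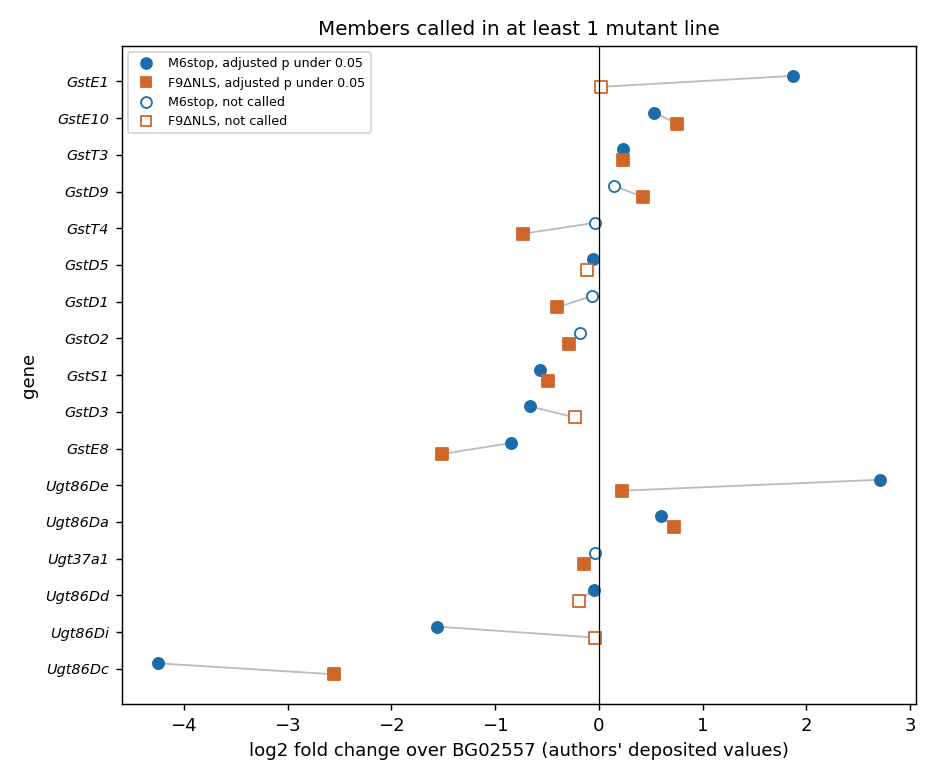
Log2 fold change over BG02557, from the authors' deposited table, of the 17 members called in at least 1 mutant line (circles M6stop, squares F9ΔNLS, filled where the adjusted p was under 0.05). Ugt86Dc has the lowest value in both lines (-4.25 and -2.55) and Ugt86De the highest in M6stop (2.71).

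The largest fall in each line, Ugt86Dc, and the largest rise in M6stop, Ugt86De, lay in the array of Ugt genes on chromosome arm 3R. Of the 17 Ugt genes 10 stand there, between 11126597 and 11177910 (BDGP6), 8 of them with Ugt86D names and the other two Ugt35a and Ugt35b. Of these 10 genes, 2 rose and 3 fell in M6stop, and 2 rose and 1 fell in F9ΔNLS, all of them among the Ugt86D genes. Over all tested genes 5.52% were called in M6stop and 23.4% in F9ΔNLS, so the F9ΔNLS count is not a result about the array. CG4757, the 1 other tested gene inside this span, was called in neither line.

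Ugt86Dc (FBgn0040257, 3R from 11154626 to 11156513, plus strand) fell furthest. Its listed log2 fold change was -4.25 in M6stop (adjusted p = 4.8e-12) and -2.55 in F9ΔNLS (adjusted p = 9.3e-06), at a mean of 123 normalized counts, per the authors' deposited table. The next gene along, Ugt86Da (FBgn0040259, 3R from 11157098 to 11159744), starts 584 bases past its end on the same strand and went the other way. Ugt86Da rose by 0.60 in M6stop (adjusted p = 5.2e-10) and by 0.72 in F9ΔNLS (adjusted p = 9.6e-15), per the authors' deposited table. These neighbours were thus called in opposite directions in both comparisons, which share the BG02557 libraries and are not independent. The less abundant gene was lower, and Ugt86Da, the most abundant of the 17 Ugt members, was higher.

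On the other side of Ugt86Dc, 776 bases away on the minus strand, Ugt86Di fell by 1.56 in M6stop (adjusted p = 3.1e-04), per the authors' deposited table. The F9ΔNLS value of Ugt86Di was -0.03 (adjusted p = 0.89), and whether the lines differ from each other was not tested. Ugt86De, at a mean of only 9.7 normalized counts, rose by 2.71 in M6stop (adjusted p = 0.011) and was called upward in F9ΔNLS with a listed value of 0.22 (adjusted p = 0.028), per the authors' deposited table. Ugt86Dd lies 22697 bases from its nearest member in the array. Its M6stop call was downward (adjusted p = 0.036) with a listed -0.05, which may not be its size, and in F9ΔNLS it had -0.20 (adjusted p = 0.060), per the authors' deposited table.

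The other Ugt genes gave few calls. Ugt35b (0.06 and 0.16) and Ugt35a (0.03 and -0.20), in M6stop and F9ΔNLS in that order, did not pass, per the authors' deposited table. Neither did Ugt36Bc (0.004 and -0.06) or Ugt58Fa (-0.05 and -0.04), per the authors' deposited table. Ugt37a1 was called downward in F9ΔNLS (-0.15) just under the threshold, with an adjusted p of 0.04997, per the authors' deposited table, while Ugt86Dj (0.0558) and Ugt37b1 (0.0561) were just over it. In M6stop Ugt37a1 had a value of -0.03 (adjusted p = 0.062), per the authors' deposited table.

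**Figure D3:**
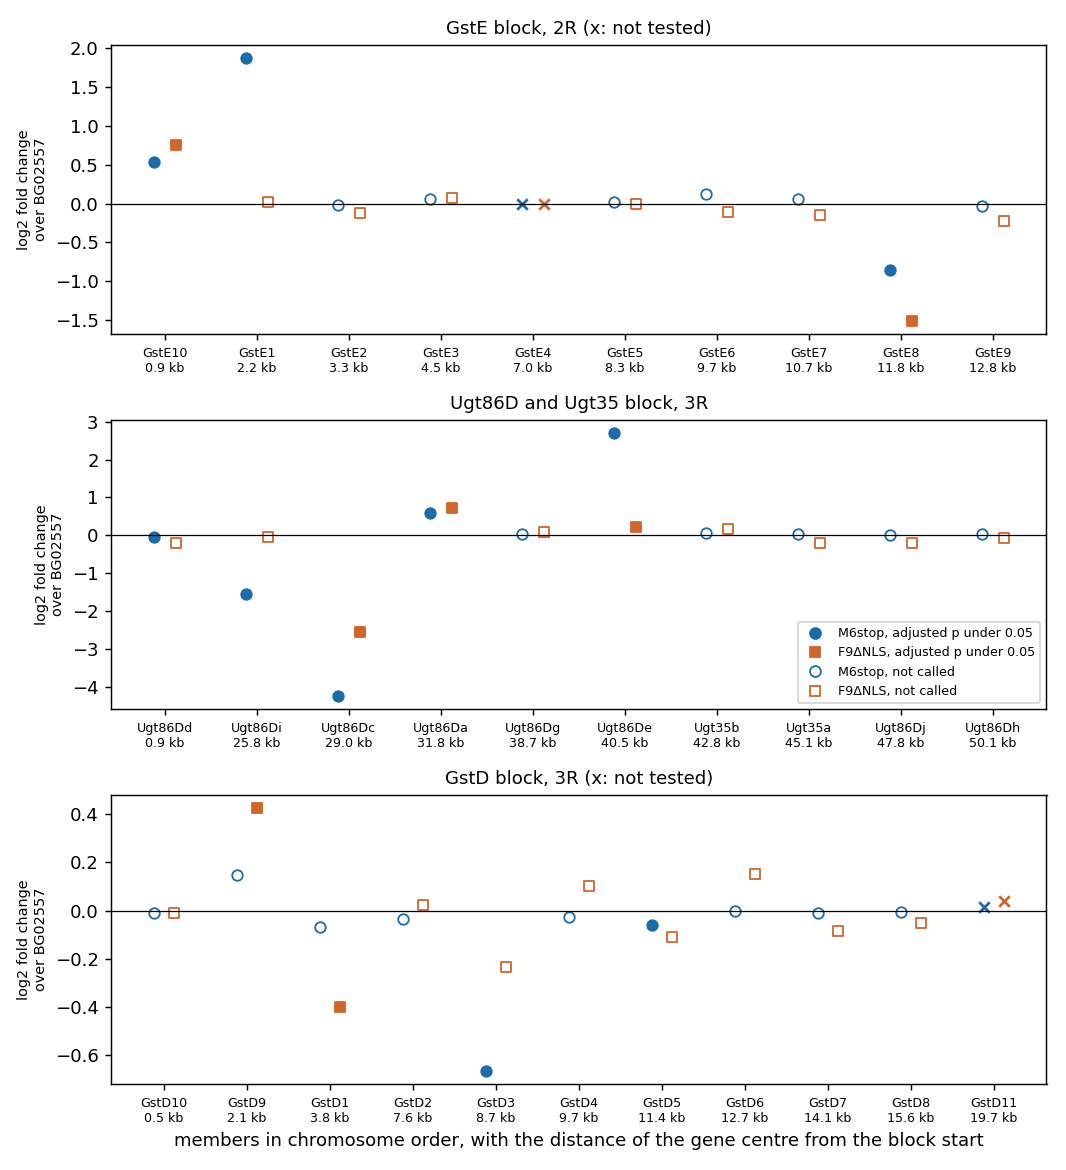
Log2 fold change over BG02557, from the authors' deposited table, of members in the 3 longest arrays, in chromosome order, with the distance of each gene's centre from the array's start in kilobases (circles M6stop, squares F9ΔNLS, filled where the adjusted p was under 0.05, crosses not tested; the vertical scales differ). In the Ugt array Ugt86Dc (-4.25 in M6stop) stands next to Ugt86Da (0.60), and in the GstE array GstE10 is higher and GstE8 lower in both lines, while GstE1 is higher in M6stop (1.87) and uncalled in F9ΔNLS (0.02).

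In the epsilon array genes near both ends moved, and the tested genes between them did not pass. The array holds 10 of the 14 GstE genes on 2R between 18396638 and 18409835 (BDGP6), 9 of them tested. Of these 9 genes, 2 rose and 1 fell in M6stop, where 5.52% of all tested genes were called. In F9ΔNLS 1 rose and 1 fell, where 23.4% of all tested genes were called, so that count is not a result about the array. GstE10 rose by 0.54 in M6stop (adjusted p = 0.030) and by 0.75 in F9ΔNLS (adjusted p = 0.0011), at a mean of 714 normalized counts, per the authors' deposited table. GstE1 rose by 1.87 in M6stop (adjusted p = 0.0077) and had 0.02 in F9ΔNLS (adjusted p = 0.89), at a mean of 180 normalized counts, per the authors' deposited table. GstE10 and GstE1 overlap on opposite strands by 127 bases, and the strand setting of the counting is not given in the sources used here, so reads of the overlap cannot be told apart.

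Toward the other end of the array, GstE8 fell by 0.85 in M6stop (adjusted p = 0.0096) and had -1.51 in F9ΔNLS, a fall as well (adjusted p = 1.2e-06), at a mean of 145 normalized counts, per the authors' deposited table. GstE7 lies 145 bases before GstE8 and GstE9 lies 92 bases after it. GstE7 (0.06 and -0.14) and GstE9 (-0.03 and -0.23) did not pass in M6stop or F9ΔNLS, per the authors' deposited table. The abundant GstE6 had 0.12 and -0.11, and GstE12, which stands alone on 2R, had 0.07 and 0.09, again without passing, per the authors' deposited table. GstE14, whose enzyme is needed for ecdysteroid synthesis, had -0.01 and 0.12 and was not called, at a mean of 66.1 normalized counts, per the authors' deposited table.

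Delta genes gave 2 calls in each line. All 11 lie on 3R between 12364776 and 12385624 (BDGP6), and of the 10 tested, 2 fell in M6stop, and 1 rose and 1 fell in F9ΔNLS. Over all tested genes 5.52% were called in M6stop and 23.4% in F9ΔNLS, so the F9ΔNLS count is not a result about the delta genes. The abundant GstD1 fell by 0.40 in F9ΔNLS (adjusted p = 5.0e-04) and had -0.07 in M6stop (adjusted p = 0.63), per the authors' deposited table. Its neighbour GstD9, 252 bases away on the same strand, rose by 0.43 in F9ΔNLS (adjusted p = 0.037) and had 0.15 in M6stop (adjusted p = 0.28), per the authors' deposited table. GstD3 fell by 0.67 in M6stop (adjusted p = 0.0075) and had -0.23 in F9ΔNLS (adjusted p = 0.21), per the authors' deposited table. GstD5 (mean 20.1 normalized counts) was called downward in M6stop with a listed -0.06 (adjusted p = 0.047), which may not be its size, and had -0.11 in F9ΔNLS (adjusted p = 0.35), per the authors' deposited table. Whether M6stop and F9ΔNLS differ was not tested for any of them.

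Outside the long arrays, GstS1, the fly's sigma-class enzyme, known for its abundance in flight muscle, was lower in both comparisons. GstS1 (FBgn0010226, 2R from 17093246 to 17099501, minus strand) fell by 0.57 in M6stop (adjusted p = 8.8e-06) and by 0.49 in F9ΔNLS (adjusted p = 1.1e-04), at a mean of 847 normalized counts, per the authors' deposited table. Of 8 muscle markers, 4 were higher in M6stop and 8 in F9ΔNLS, and 0 were lower in either. Over all tested genes 3.48% were higher in M6stop and 11.6% in F9ΔNLS. Whether muscle RNA has a part in the GstS1 values was not tested.

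Theta and omega genes gave a few smaller calls, and zeta genes gave none. GstT3 rose by 0.23 in M6stop (adjusted p = 0.044) and by 0.24 in F9ΔNLS (adjusted p = 0.024), per the authors' deposited table. GstT4, like GstT3 on the X chromosome but far from it, fell by 0.73 in F9ΔNLS (adjusted p = 0.025) and had -0.03 in M6stop (adjusted p = 0.67), per the authors' deposited table. GstT1 (-0.11 and -0.03, in M6stop and F9ΔNLS) was not called, per the authors' deposited table. GstO2 fell by 0.29 in F9ΔNLS (adjusted p = 0.0028) and had -0.18 in M6stop (adjusted p = 0.097), per the authors' deposited table. GstO2 overlaps se, the omega-class gene of eye pigment synthesis, on the other strand, and se had a mean of only 1.6 normalized counts, per the authors' deposited table. The 2 zeta genes, whose class takes part in tyrosine breakdown, had values from -0.13 to 0.06 in the 2 comparisons and were not called, per the authors' deposited table.

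The 37 tested members without a call had log2 fold changes from -0.18 to 0.15 in M6stop, and the 37 without a call in F9ΔNLS had values from -0.24 to 0.16, per the authors' deposited table. As such values look pulled toward 0, these ranges do not show that the uncalled members were level. Position in an array was common among all members, not only those that changed: 41 of 52 lay within 50 kb of another member, in 7 arrays, and 13 of the 17 members called in at least 1 line were among them. Proteins of the annotated members ran from 199 to 268 amino acids for Gst genes and from 516 to 543 for Ugt genes. Copies in an array resemble each other, and how reads were divided among them is uncertain. Opposite-strand overlap with another annotated gene was found for 8 members.

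Other genes of conjugation were counted from lists of the pathway. Some planned names matched no listed gene or shared one, so the lists do not cover the whole pathway. For glutathione synthesis and turnover 15 names gave 10 genes, and for Gst-like genes outside the name rule 10 names gave 4. The counts of each list stand beside 5.52% of all tested genes called in M6stop and 23.4% in F9ΔNLS. Of genes of glutathione synthesis and turnover, 1 of 10 tested rose in M6stop, and 1 rose and 2 fell in F9ΔNLS. CG17636 rose by 1.94 in M6stop (adjusted p = 6.1e-04), per the authors' deposited table. Eip55E, which encodes a cystathionine gamma-lyase of cysteine synthesis, rose by 0.32 in F9ΔNLS, and Ggt-1, whose gamma-glutamyl transpeptidase breaks glutathione down, fell by 0.34 and the methyltransferase gene Gnmt by 0.14 there, per the authors' deposited table. The list's median was 0.01 in M6stop and -0.01 in F9ΔNLS.

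Thiol redox genes gave 3 rises and 1 fall among 17 tested in M6stop, and 1 rise and 3 falls in F9ΔNLS, with list medians of 0.04 and 0.03. PHGPx, a glutathione peroxidase relative, rose by 0.24 in M6stop and by 0.20 in F9ΔNLS, per the authors' deposited table. Catalase (Cat) rose by 0.33 and the peroxiredoxin gene Prx2540-1 by 0.74 in M6stop, per the authors' deposited table. The oocyte thioredoxin gene dhd fell in M6stop (-0.97) and in F9ΔNLS (-1.20), per the authors' deposited table. The peroxiredoxin genes Jafrac1 (-0.18) and Jafrac2 (-0.19) fell in F9ΔNLS, per the authors' deposited table.

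Of 10 genes that supply UDP-sugars, 2 rose and 0 fell in M6stop, and 0 rose and 2 fell in F9ΔNLS, with medians of 0.02 and -0.09. UGP, which makes UDP-glucose, rose by 0.18 and the phosphoglucomutase gene Pgm by 0.21 in M6stop, per the authors' deposited table. Gfat2 of the hexosamine pathway (-0.32) fell in F9ΔNLS, per the authors' deposited table. In F9ΔNLS the sulfotransferase gene St4 fell by 1.27, per the authors' deposited table, 1 of 3 sulfotransferase genes tested, and 0 of the 3 were called in M6stop.

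Of 15 genes of conjugate export 0 were called in M6stop, and 4 rose and 1 fell in F9ΔNLS, with medians of 0.01 and 0.04. The ABC transporter genes Mrp4 (1.50), CG5789 (0.42) and CG11897 (0.38) had the smallest p among the rises, and rtet, a transporter gene of another family, fell (-0.40), per the authors' deposited table. Of 8 regulators of xenobiotic response, 1 rose in M6stop and 3 in F9ΔNLS, with 0 falls and medians of 0.03 and 0.04. The transcription factor gene foxo rose by 0.17 in M6stop and by 0.36 in F9ΔNLS, per the authors' deposited table. In F9ΔNLS cnc, the fly relative of Nrf2, rose by 0.12 and Keap1, which encodes its inhibitor, by 0.35, per the authors' deposited table. Of 3 further Gst-like genes outside the name rule 0 were called in either line, with values from -0.05 to 0.06 in M6stop and from -0.15 to 0.18 in F9ΔNLS, per the authors' deposited table.

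Cytochrome P450 genes, which act on many compounds before conjugation, had 9 rises and 4 falls among 74 tested in M6stop and 8 rises and 8 falls in F9ΔNLS, with medians of 0.01 and -0.001. That is 17.6% called in M6stop, against 5.52% of all tested genes, and 21.6% in F9ΔNLS, against 23.4%. The F9ΔNLS share is near that of all tested genes and is not a result about P450 genes. Cyp6a2, a gene linked to insecticide resistance, rose by 2.57 in M6stop and by 1.92 in F9ΔNLS, per the authors' deposited table. Cyp305a1 fell in M6stop (-1.39) and in F9ΔNLS (-1.14), per the authors' deposited table. Cyp4p2 (8.17 and 0.32) and Cyp4e3 (3.18 and 1.94) rose in M6stop and F9ΔNLS, in that order, per the authors' deposited table. Cyp317a1 fell in M6stop (-0.85) and in F9ΔNLS (-1.12), per the authors' deposited table. Cyp6a19 fell in F9ΔNLS (-0.53) and was not called in M6stop (-0.20), per the authors' deposited table. Since both comparisons share the BG02557 libraries, agreement between them is not independent.

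**Figure D4:**
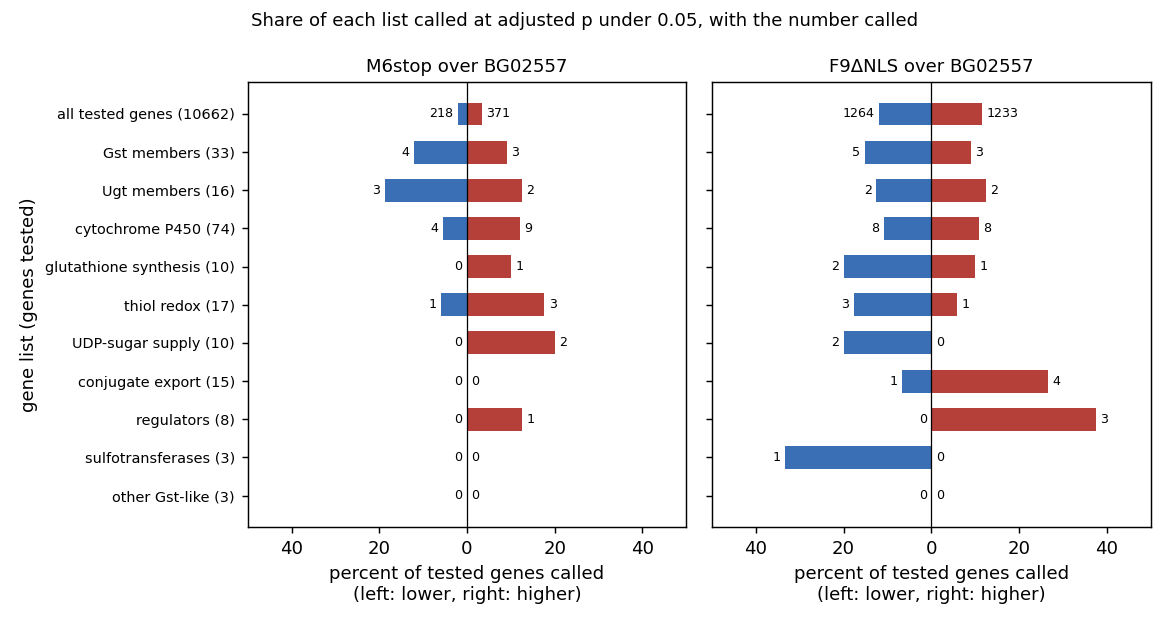
Percent of the tested genes of each list called higher (right) or lower (left) at a DESeq2 adjusted p under 0.05 in each mutant line, with the number called at each bar and the number tested in parentheses. In M6stop the Gst bars (3 higher, 4 lower of 33) and Ugt bars (2 higher, 3 lower of 16) are longer than those of all tested genes, and in F9ΔNLS they are close to them.

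Markers of the ovary and of other organs also differed from the control line. Their counts stand beside 3.48% of all tested genes higher in M6stop and 11.6% higher in F9ΔNLS. In F9ΔNLS 3 of 6 germline markers rose (osk, aub and grk) and nos fell (-0.60), and 3 of 6 follicle cell markers rose (tj, Fas3 and br) and Vm26Aa fell (-0.85), per the authors' deposited table. In M6stop 0 of 6 passed in either of these lists by the authors' DESeq2. In M6stop 2 of 5 Malpighian tubule markers rose, Uro (1.89) and Irk2 (1.27), together with 3 of 7 fat body markers, 4 of 8 muscle markers, 1 of 5 tested hemocyte markers and 1 of 4 tested reproductive tract markers, per the authors' deposited table. In F9ΔNLS the counts of risen markers were 0 of 5 for tubule, 2 of 7 for fat body, 8 of 8 for muscle, 2 of 5 for hemocytes and 2 of 4 for the reproductive tract. Of the 7 gut markers 0 passed in either line by the authors' DESeq2, with listed values from -0.01 to 0.01 in M6stop and from -0.04 to 0.02 in F9ΔNLS that do not show that gut RNA was level, per the authors' deposited table. The part of these differences in the members' changes was not tested.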

How the data were processed

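Per the labels' protocols, ovary RNA was depleted of ribosomal RNA and sequenced in paired-end libraries. The submitters' processing notes name DESeq2 1.25.10, DESeq, Salmon 1.3.0 and R 3.6.3 with the build BDGP6, but the authors' order of steps, strand setting and filters are not given there.

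One table deposited by the authors was used. Its mean normalized count is a signal value that the authors made before deposit, the average over libraries of size-factor-scaled counts by the meaning of its column name. Log2 fold changes with adjusted p-values come from the authors' DESeq2 fit, per the file headers; base 2 was assumed. Its 9 columns of per-library values have names that match no sample label and were not used, so the planned edgeR fits, depth and replicate spread are not given.

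Members were chosen by name, and calls were counted at an adjusted p under 0.05. Members and lists were chosen with earlier results of these data known. All called members, the 6 most abundant members of each family and up to 4 called genes per pathway list with the smallest adjusted p were named. Other genes named were chosen after their values were seen. P450 genes were taken by a family number followed by a letter, which leaves out the cyclophilin gene Cyp1 that the planned pattern took in. Positions and exon lengths came from Ensembl release 115 (BDGP6.54), where all 52 members matched the table's chromosome. Counting was tested on simulated data in Python 3.11.15 with pandas 2.3.3. Sequences were not used, and 1 list gene is not reported here.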

Additional observations from a re-analysis of the deposited data

How the results depend on the processing

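No paired analysis was possible because the library columns carry no sample names. For the same reason the edgeR and DESeq2 refits, a filter on the counts of single libraries and leaving out replicates were not run. At an adjusted p under 0.01, 2 members were higher in M6stop and 2 in F9ΔNLS, in place of 5 and 5, while 5 were lower in each, in place of 7 and 7; of all tested genes 3.29% and 14.0% passed in M6stop and F9ΔNLS. At an adjusted p under 0.1, 6 members were higher and 13 lower in F9ΔNLS and 6 higher and 9 lower in M6stop, with 30.2% and 7.15% of all tested genes passing. With a log2 fold change of at least 0.5 in size, 2 members were higher and 3 lower in F9ΔNLS, against 4 and 5 in M6stop, where 7.28% and 3.16% of all tested genes passed in these lines. A minimum mean of 50 normalized counts left 34 tested members, 4 higher and 6 lower in M6stop and 4 and 7 in F9ΔNLS, with 6.04% and 28.3% of all genes under that filter passing. Counts of P450 genes at an adjusted p under 0.01 were 4 higher and 2 lower in M6stop and 2 higher and 3 lower in F9ΔNLS; with the minimum mean, 5 were higher in M6stop and 4 in F9ΔNLS, and with the cyclophilin gene Cyp1 that the planned name pattern took in, a list chosen against after seeing the data, 9 of 75 were higher in F9ΔNLS. For the other pathway lists joined, an adjusted p under 0.01 gave 2 higher in M6stop (7 at 0.05) and 4 lower in F9ΔNLS (9 at 0.05). Of single members, 5 calls in each line were lost at 0.01, and 3 in M6stop and 7 in F9ΔNLS were gained at 0.1. These follow from the thresholds themselves. No spread between libraries was used, so no interval is attached to any change.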

Other observations

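More glycosyltransferase genes exist than the name rule takes in. In the current annotation 18 further genes of the authors' deposited table carry Ugt names, 16 of them tested, and 1 was higher and 1 lower in each line. Over all tested genes 5.52% were called in M6stop and 23.4% in F9ΔNLS, so the F9ΔNLS count is not a result about these genes. The following were named after their values were seen. CG3797 (now Ugt316A1) had a mean of 2082 normalized counts, above the 1268 of Ugt86Da, and was called in neither line, per the authors' deposited table. CG10178 (now Ugt301D1), at a mean of 499 normalized counts, rose by 0.50 in M6stop (adjusted p = 0.014) and by 0.44 in F9ΔNLS (adjusted p = 0.015), per the authors' deposited table. CG17322 (now Ugt36E1) fell by 0.39 in M6stop (adjusted p = 0.029) and had -0.29 in F9ΔNLS (adjusted p = 0.064), per the authors' deposited table. CG5999 (now Ugt37A3) fell by 1.57 in F9ΔNLS (adjusted p = 0.0068) and had 0.01 in M6stop (adjusted p = 0.81), per the authors' deposited table. The current names also split the Ugt86D genes: Ugt86Dc is Ugt302E1, Ugt86Da is Ugt302C1 and Ugt86Di is Ugt302K1, while Ugt86Dd and Ugt86De are grouped with the Ugt35 genes as Ugt35C1 and Ugt35E2.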
